A study of Rattus norvegicus with 10 samples.

Results

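Granule neurons are the excitatory cells that fill the main cell layer of the dentate gyrus, and their nuclei are marked by the transcription factor Prox1. The nuclei described here are the granule nuclei in which the UMIs (unique molecular identifiers, each tagging 1 captured transcript) of 4 genes, Trabd2b, Deptor, Smo and Rspo3, outnumbered those of 3 other gene groups. They numbered 2549 of the 55863 barcodes of the snRNA-seq matrices. A nucleus qualified with 500 or more UMIs, at most 5% mitochondrial UMIs, at least 1 UMI of Prox1 and at most 1 UMI of Gad1 plus Gad2, the enzymes that make GABA. These steps left 20216 Prox1 nuclei, of which 5545 held 2 or more UMIs of the 4 genes and 2549 held more of them than of each other group. The other groups were Niban3, Ano2, Tcerg1l, Myo5b and Otof (2282 nuclei by the same rule), Ror2, Itga11, Gcnt4, Tspan18 and Col11a1 (2006 nuclei), and Bdnf, Robo3, Serinc2 and Smad3 (5141 nuclei). A further 8238 Prox1 nuclei fell in no type.

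The tissue was the ipsilateral dentate gyrus of young adult male Sprague-Dawley rats, collected 3 weeks after a right-sided lateral fluid percussion injury (LFPI), a pulse of fluid onto the intact dura that models traumatic brain injury (TBI). TBI and sham rats both had a craniectomy days earlier, isoflurane anaesthesia and extended-release buprenorphine, and sham rats received no pulse. The naïve rat had no surgery. snRNA-seq covered 2 TBI rats, 1 sham rat and 1 naïve rat, each a single library from 1 animal. The sham and naïve rats formed one control group, which follows the study. The labels give all 4 libraries the same batch, and Prox1 nuclei were found in each. Bulk RNA-seq covered 6 other rats, 3 TBI and 3 sham.

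The 4 genes that define these nuclei belong to signalling routes that are well known in the dentate gyrus. Smo is the membrane protein that passes on the Hedgehog signal once a Hedgehog ligand has bound its receptor Patched, and the pathway maintains the neural stem cells beside the granule layer. Rspo3 is a secreted R-spondin that strengthens Wnt signalling by keeping Wnt receptors at the cell surface, while Trabd2b (also called Tiki2) is a membrane protease that inactivates Wnt ligands. Deptor binds and inhibits the mTOR kinase, which sets protein synthesis and cell growth.

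The rule found 594 nuclei in TBI rat 1, 604 in TBI rat 2, 439 in sham and 912 in naïve. Their median depth was 2600.5, 1911.5, 2196 and 2846.5 UMIs in the same order, and their UMIs summed to 1869677, 1413148, 1086171 and 3340650 per animal. The naïve rat therefore gave the most nuclei and the deepest ones, and the sham rat the fewest. Pairs of libraries shared 46 to 64 barcodes, at most 0.455% of either library.

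The type rests on few UMIs per nucleus. The sum of the 4 genes was exactly 2 in 1034 members, 3 in 752 and 4 or more in 763. Just outside the rule lay 692 nuclei with a sum of 1 above the other groups, 1034 with a sum of 2 or more tied with another group, and 1962 with a sum of 2 or more below another group. Only 82 members (3.22%) held all 4 genes, 528 held 3, 1427 held 2 and 512 held a single gene. Each gene was seen in close to the same share of members, 52.3% for Trabd2b, 51.5% for Deptor, 51.5% for Smo and 51.8% for Rspo3. Oligodendrocyte nuclei should lack these genes and show the level of free RNA. A sum of 2 or more was found in 3.8% to 7.37% of them per library (median depth 767.5 to 1216.5 UMIs). These nuclei were chosen for 3 or more UMIs of Mog, Mag, Mobp and Opalin together and for no UMI of Prox1. Their lack of Prox1 was thus set by the choice, and these shares may understate the level of free RNA. Among Prox1 nuclei the same sum was found in 17.7% to 37.8% (median depth 1780 to 2882 UMIs). With every nucleus thinned to 500 UMIs the shares were 0% to 0.656% and 1.66% to 3.28%. At that depth each single gene was also seen in a larger share of the Prox1 nuclei in every library, but some gaps were small. Deptor was seen in 2.46% to 4.56% of the oligodendrocyte nuclei and in 4.44% to 5.60% of the Prox1 nuclei. In the naïve rat its shares were 4.56% and 4.75%.

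The members were checked against markers of granule neurons. Prox1 itself, which the rule requires, stood at 533, 732, 612 and 542 CPM (UMIs of a gene scaled to a common total for each sum of nuclei) in TBI rat 1, TBI rat 2, the sham rat and the naïve rat. The other 10 granule markers found in the files summed to 4331, 4497, 4077 and 4308 CPM, against 2525, 2422, 2617 and 2078 CPM in the oligodendrocyte nuclei of the same libraries. Maml2 and Stxbp6 made up most of both sums. In all 4 animals 7 of the 10 were higher in the members, while Pdzd2 was lower in each (244, 181, 249.5 and 180 against 277, 254, 261 and 230 CPM). C1ql2 was lower in TBI rat 2 alone (86.3 against 103 CPM), and Dsp was at or near 0 in both kinds of nuclei, at no more than 2.14 CPM in the members and 3.02 CPM in the oligodendrocyte nuclei. Markers of immature granule neurons such as Dcx summed to 54.0, 34.0, 56.2 and 47.9 CPM, against 67.1, 43.8, 48.4 and 49.8 CPM in the oligodendrocyte nuclei. The members were lower in 3 animals and higher in the sham rat. Dcx, on average the most abundant of them, was at 28.9, 9.20, 38.7 and 20.4 CPM against 31.3, 3.02, 31.1 and 15.6 CPM. GABAergic markers summed to 95.2 to 198 CPM against 549 to 792 CPM, but the sums are no check of identity, because the rule caps Gad1 and Gad2 in the members and most of the oligodendrocyte sum was Erbb4 (378 to 566 CPM).

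Markers of astrocytes differed between the animals. The 8 astrocyte markers summed to 466 CPM in TBI rat 1, 824 in TBI rat 2, 388 in sham and 950 in naïve. Slc1a3, a glutamate transporter and on average the most abundant of them, stood at 182, 244, 182 and 307 CPM, and none of the 8 was at 0. In the members the naïve rat was the highest and the sham rat the lowest, so the 2 controls lay on either side of both TBI rats. In the oligodendrocyte nuclei of the same libraries the list summed to 872.2, 1231, 1549 and 2159 CPM, above the members of the same animal in every library, and there both controls lay above both TBI rats. There were 197 members (7.73%) with 3 or more astrocyte UMIs, which were deeper (median 4418 against 2438.5 UMIs) and held 18.3% of all member UMIs. Results below are also given without these nuclei where stated, and the part played by astrocyte RNA was not tested further.

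A first question is whether the 4 genes occur together beyond the rule that groups them. Each gene was therefore measured in nuclei chosen by the other 3 genes alone, against the mean of the 3 other granule types. Deptor was 141, 127, 92.1 and 104 CPM in the chosen nuclei of TBI rat 1, TBI rat 2, the sham rat and the naïve rat, and 94.4, 88.6, 67.5 and 75.1 CPM in the other types. Smo was 140, 115, 83.6 and 145 CPM against 96.5, 92.4, 59.9 and 97.8 CPM. Both genes were higher in the chosen nuclei of all 4 animals, by 0.50 ± 0.06 for Deptor and 0.47 ± 0.11 for Smo (mean Log2 ratio ± SD, n = 4 animals). Rspo3 was 104, 141, 101 and 136 CPM against 87.1, 112, 82.7 and 101 CPM, a Log2 ratio of 0.32 ± 0.07. Trabd2b was 123, 183, 92.5 and 130 CPM against 92.9, 182, 77.7 and 116 CPM, a Log2 ratio of 0.21 ± 0.17. By these ratios Trabd2b was the weakest companion, and in TBI rat 2 the 2 values were nearly equal (Log2 ratio 0.01). These ratios correspond to 1.16-fold to 1.42-fold differences and are given as a description, since choosing nuclei by any sum also selects for depth and against the genes of the other sums. Prox1 nuclei of no type held 96.5, 114, 85.8 and 103 CPM of Deptor, close to the chosen nuclei in the sham and naïve rats. They held 98.4, 93.8, 72.4 and 117 CPM of Smo and 85.3, 115, 82.7 and 119 CPM of Rspo3. For Trabd2b they held 85.5, 144, 67.9 and 113 CPM. The chosen nuclei were higher than these in every animal for each gene.

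**Figure D1:**
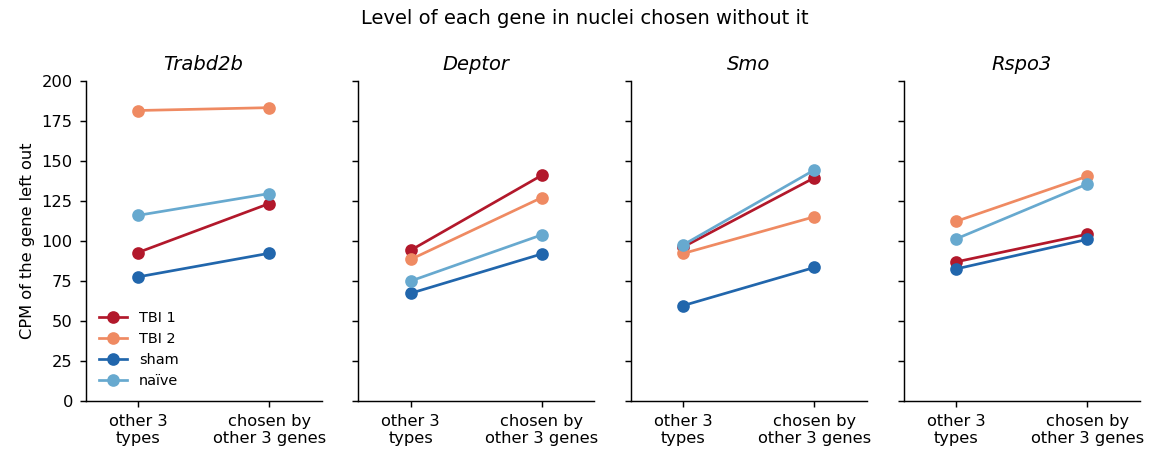
CPM of each of the 4 genes (vertical axis) in nuclei chosen by the other 3 genes (right points) and as the mean of the other 3 granule types (left points), with 1 line per animal. Every line rises, and the Trabd2b line of TBI rat 2 is almost flat, from 182 to 183 CPM.

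Against single types rather than their mean, no gene of the 4 exceeded the other type in which it was highest by more than the spread between animals. Deptor and Smo were highest in the Bdnf and Robo3 type, at means of 113 and 115 CPM, against 116 and 121 CPM in the nuclei chosen without the gene. The Log2 ratios were 0.03 ± 0.13 for Deptor (higher in 2 of 4 animals) and 0.07 ± 0.11 for Smo (higher in 3 of 4). Trabd2b and Rspo3 were highest in the Ror2 and Itga11 type, at 137 and 117 CPM, against 132 and 120 CPM, with Log2 ratios of -0.03 ± 0.14 and 0.04 ± 0.08. In the remaining comparisons the chosen nuclei were higher in 4 of 4 animals. The widest gaps were those of Deptor (0.92 ± 0.10) and Smo (0.89 ± 0.06) against the Ror2 and Itga11 type. Deptor and Smo on one side and Trabd2b and Rspo3 on the other were thus highest in different granule types.

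The members made up 11.7% of the Prox1 nuclei in TBI rat 1, 12.8% in TBI rat 2, 8.18% in sham and 18.0% in naïve. Exact binomial 95% intervals, which cover counting error only, were 10.8% to 12.6%, 11.9% to 13.8%, 7.46% to 8.95% and 17.0% to 19.1%. The 2 TBI rats lay between the 2 controls, which differed from each other more than from either TBI rat. The mean share was 12.3% in TBI and 13.1% in control, a difference of -0.857 percentage points (exact permutation test over animals, two-sided, p = 1, with 0.333 the smallest p that 2 against 2 allows). With only the sham rat as control the difference was 4.07 points, and with only the naïve rat -5.79 points. The naïve rat also had the deepest nuclei. With each nucleus thinned to 1000 UMIs the shares were 5.39%, 7.35%, 4.13% and 7.65% (143, 199, 125 and 197 nuclei), after 262, 562, 233 and 93 shallower Prox1 nuclei were left out. At equal depth TBI rat 2 stood next to the naïve rat, and the sham rat remained the lowest.

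**Figure D2:**
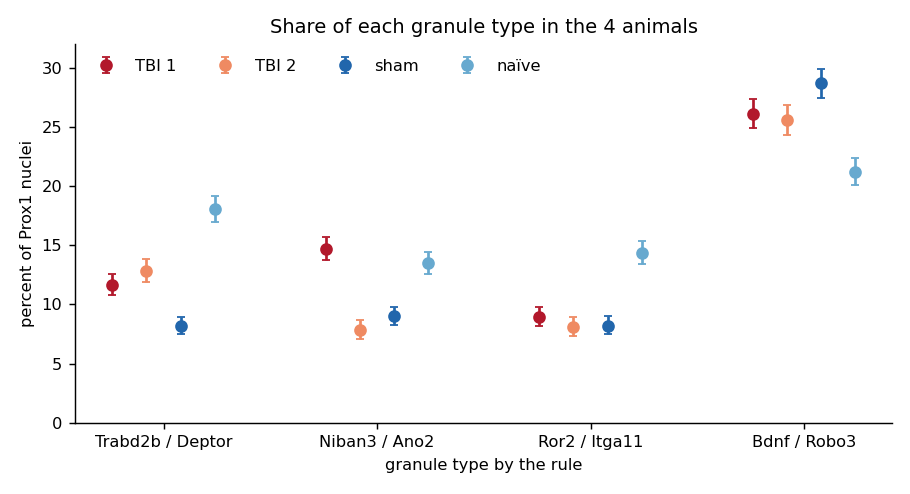
Percent of the Prox1 nuclei of each animal (vertical axis) assigned to each of the 4 granule types, with exact binomial 95% intervals that cover counting error only. For the Trabd2b and Deptor type the naïve rat was highest at 18.0% and the sham rat lowest at 8.18%, with both TBI rats between them.

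The type was next described by the genes outside the rule that set it apart from the other 3 granule types. Log2 ratios were taken within each animal between the CPM of the members and the mean CPM of the 3 other types (pseudocount of 1 CPM), for the 3995 genes with a mean of 50 CPM or more in the members or in the other types. No test was made, because the nuclei were chosen by their own transcripts. Few genes differed by much. A Log2 ratio of 0.5 or more with the same sign in all 4 animals was found for 19 genes (0.476% of the 3995), and one of -0.5 or less for 25 genes (0.626%). Because a gene could pass the filter on 1 side alone, 10 of the 19 reached 50 CPM in the members only (among them B3gat2, Mid1, Unc13c, Abca1, Slc7a11 and Eif1) and 4 of the 25 in the other types only. With 50 CPM required of the mean of both sides, the counts were 14 and 25. The median ratio was -0.003. By the rule itself the genes of the other 3 sums were lower, from -0.67 for Gcnt4 to -2.78 for Niban3, and Prox1, which every nucleus had to hold, lay at -0.01 ± 0.03. Against the Niban3 and Ano2 type alone the counts were 131 and 140, against the Ror2 and Itga11 type 58 and 89, and against the Bdnf and Robo3 type 6 and 15. By these counts the members were closest to the Bdnf and Robo3 type.

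Among the higher genes, B3gat2, Grm8, Boc, Unc13c and Mid1 stayed above 0.5 when nuclei with astrocyte UMIs were left out. So did Slc7a11, Tmsb4x and Eif1, which are described further below. B3gat2, an enzyme that builds a glycan found on neuronal surface proteins, was 58.8, 58.0, 83.8 and 59.6 CPM in the members of TBI rat 1, TBI rat 2, the sham rat and the naïve rat, against 43.5, 30.5, 44.9 and 34.5 CPM in the other types. Its Log2 ratio was 0.75 ± 0.22, and 0.79 without the astrocyte nuclei. Grm8, a presynaptic metabotropic glutamate receptor, was 174, 148, 118 and 119 CPM against 120, 84.3, 86.4 and 75.2 CPM. The members were higher in every animal, with a Log2 ratio of 0.61 ± 0.16. Boc, a surface co-receptor for Hedgehog ligands, was 76.5, 68.6, 80.1 and 96.4 CPM against 58.2, 61.8, 49.1 and 50.8 CPM, a ratio of 0.54 ± 0.34 that was smallest in TBI rat 2. Unc13c, which primes synaptic vesicles for release, had a ratio of 0.53 ± 0.13, and Mid1, a ubiquitin ligase bound to microtubules, one of 0.58 ± 0.19. Grm8 and Unc13c were about as high in the Bdnf and Robo3 type, with ratios to that type alone of 0.13 and -0.00031, whereas the ratio of B3gat2 was 0.71 to that type and 0.26 to the Ror2 and Itga11 type.

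Several other higher genes are best known from astrocytes. Apoe, the main lipid carrier of the brain, was 477, 796, 351 and 1554 CPM in the members of TBI rat 1, TBI rat 2, the sham rat and the naïve rat, against 406, 591, 233 and 782 CPM in the other types. Its Log2 ratio of 0.56 ± 0.32 became 0.13 without nuclei of 3 or more astrocyte UMIs, and Lgi4 went from 0.53 to -0.38. The ratios of Gja1, a gap junction protein, and Ndrg2 went from 0.57 and 0.55 to 0.42 and 0.32. The lipid exporter Abca1 went from 0.59 to 0.43, and the cystine transporter Slc7a11 stayed at 0.58 and 0.59. The calcium-activated membrane protein Ano4, which is not one of the astrocyte genes, had 0.53 and 0.47. Gja1 is itself one of the markers used to leave those nuclei out. In all, 8 genes in place of 19 passed a ratio of 0.5 without those nuclei, and 32 in place of 25 a ratio of -0.5.

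Of the remaining higher genes, Tmsb4x (an actin-binding peptide) and Eif1 (a translation initiation factor) varied widely between libraries. Tmsb4x was 165 CPM in the members of TBI rat 1 but 36.8 CPM in those of TBI rat 2, and Eif1 was 91.5 and 4.95 CPM. The same spread was seen in the other granule types, at 157 and 14.7 CPM for Tmsb4x and 82.2 and 1.81 CPM for Eif1. Ribosomal protein genes were also highest in TBI rat 1 and lowest in TBI rat 2, summing to 3171 CPM in TBI rat 1, 1491 in TBI rat 2, 1628 in sham and 2050 in naïve, and the part of library quality was not tested.

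Of the 25 lower genes, the 8 with the lowest ratios were lower in all 4 animals without the astrocyte nuclei as well. Cpne7, a calcium-dependent membrane-binding protein, was 57.8, 20.5, 45.1 and 13.8 CPM against 93.7, 67.9, 78.1 and 70.5 CPM in the other types, a Log2 ratio of -1.36 ± 0.76. Car10, a secreted partner of neurexins, was 188, 156, 168 and 88.3 CPM against 319, 267, 307 and 259 CPM, a ratio of -0.99 ± 0.38. Tenm4, a teneurin adhesion protein, had 388, 253, 342 and 215 CPM against 589, 453, 636 and 488 CPM, a ratio of -0.88 ± 0.24. All 3 were lowest, relative to the other types, in the naïve rat. Tpd52l1, Cobl (an actin nucleator), Adra1a (an adrenergic receptor), Adamts9 (a matrix protease) and Mdga1 (an inhibitor of neuroligin contacts) followed with ratios of -0.79 to -0.72. Against the Niban3 and Ano2 type alone these genes lay at -2.23 to -1.18, and against the Bdnf and Robo3 type Adamts9 and Mdga1 had ratios of 0.23 and 0.37. Against the Ror2 and Itga11 type Tpd52l1 had one of 0.32, and Tenm4, Cobl and Adra1a ones of -0.05 to -0.0051.

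**Figure D3:**
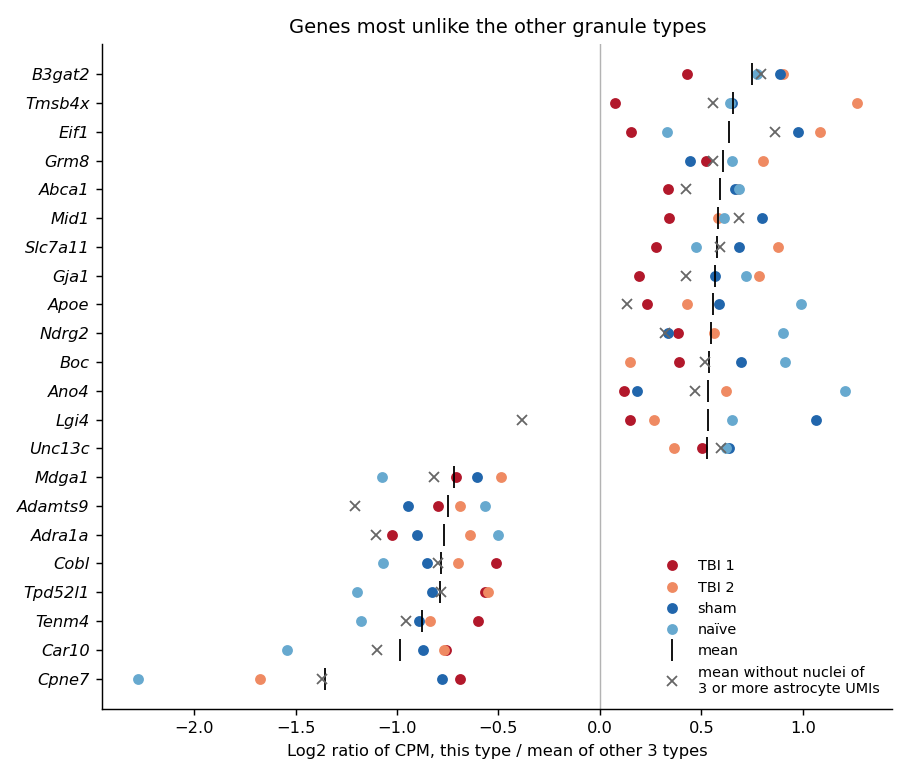
Log2 ratio of CPM in the members to the mean of the other 3 granule types (horizontal axis) for 14 of the 15 highest and the 8 lowest genes outside the rule, with 1 dot per animal, the mean as a bar, and a cross for the mean without nuclei of 3 or more astrocyte UMIs. Apoe and Lgi4 are the higher genes whose cross lies lowest, at 0.13 and -0.38, and the crosses of the lower genes all lie below -0.7.

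The signalling routes of the 4 genes were examined through lists of their pathways. In the Hedgehog list, 3 of the 7 members with 50 CPM or more outside the rule were higher than in the other types in all 4 animals (13.9% of the 3995 genes were), and none was lower in all 4. These were Boc, Ptch1, the Hedgehog receptor and a classic target of the pathway (0.32 ± 0.11), and Disp1, which releases Hedgehog ligands from the cells that make them (0.31 ± 0.19). Without the astrocyte nuclei the ratios of Ptch1 and Disp1 were 0.23 and 0.32. The ligands Shh, Dhh and Ihh were at 0 in the members of every animal, which allows up to 3 UMIs in the 1086171 to 3340650 UMIs sequenced. Gli1, whose transcription follows active signalling, had 0.53 CPM in TBI rat 1 and was at 0 in the other animals, while Gli3, mainly a repressor, had 74.3, 82.8, 84.7 and 134 CPM. Cdon, Sufu and Disp2, with Gli3 the most abundant members, had ratios of -0.14, -0.05 and -0.02.

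The Wnt list held 70 genes in the files, of which 12 were at 0 in all 4 animals. Wnt4 was the ligand with the most UMIs, at 77.6, 90.6, 71.8 and 106 CPM. Among the partners of Rspo3, the receptor Lgr4 had 63.7 to 79.2 CPM, and Lgr5, best known from stem cells, had at most 1.42 CPM. Rspo2, a second R-spondin, had 29.3 to 61.7 CPM and was lower than in the other types in 4 of 4 animals (-0.23 ± 0.27). Axin2 and Lef1, targets of Wnt signalling, had 9.88 to 15.6 and 15.7 to 21.9 CPM. Of the 11 Wnt genes with 50 CPM or more, 2 were higher in all 4 animals, the ligand-processing enzyme Porcn (0.08 ± 0.05) and the secreted protein Dkk3 (0.22 ± 0.13), and 2 were lower (16.7% of the 3995 genes were). The median ratio of the list was 0.02, and those of the most abundant members Apc, Csnk1a1, Lrp6 and Gsk3b lay between -0.02 and 0.06.

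Of the mTOR list, 18 genes had 50 CPM or more, 5 of them higher and 2 lower in all 4 animals (13.9% and 16.7% of the 3995 genes were), and the median ratio was -1.39e-05. Rictor, a subunit of mTOR complex 2, and Sgk1, a kinase downstream of it, had ratios of 0.13 ± 0.11 and 0.24 ± 0.17, while Rheb, the activator of mTOR complex 1, had -0.22 ± 0.10. The core subunits Mtor, Rptor and Mapkap1 lay between -0.02 and 0.03.

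Lists of neuronal function are read against the 13.9% of the 3995 genes that were higher in all 4 animals and the 16.7% that were lower. Of 18 glutamate receptor genes 6 were higher in all 4 animals, among them Grm8, Grm3 (0.40 ± 0.25) and Grik2 (0.11 ± 0.06), and 4 were lower. The most abundant, Grin2b (-0.10, lower in all 4 animals), had 3004, 3337, 2837 and 2998 CPM, and Gria2 had 2797, 3188, 2848 and 3094 CPM. Grin2c, also high (0.51), went to -0.16 without the astrocyte nuclei. Of 8 GABA-A receptor genes 1 was higher, Gabra4 (0.09), and 3 were lower, including Gabrg3 (-0.70 ± 0.19) and the most abundant subunit Gabrb1 (-0.08). Gabra2 had a ratio of 0.04. Of 21 potassium channel genes 4 were higher, among them Kcnt2, a sodium-activated channel (0.32 ± 0.06), and Kcnq3 (0.03), and 5 were lower, including the leak channel Kcnk2 (-0.66 ± 0.17). Kcnma1 and Kcnj3 lay at -0.05. Of 17 sodium, calcium and HCN channel genes 2 were higher, among them Cacna1d (0.06), and 9 were lower, among them Cacna2d1 (-0.08), a larger share than the 16.7% of all genes, with a median ratio of -0.08. Cacna1e and Cacnb2 lay at -0.02.

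Of 36 adhesion and guidance genes 9 were higher in all 4 animals and 16 lower, the latter including Tenm4, the contactin Cntn4 (-0.65 ± 0.21), the netrin receptor Unc5c (-0.43 ± 0.15) and Nlgn1 (-0.12). Both shares were above those of all genes (13.9% and 16.7%), and the median ratio of the list was -0.05. The most abundant, Lrrtm4, had 4950, 6577, 6436 and 5459 CPM and a ratio of 0.02, and Nrxn3 had -0.03. Of 5 neuropeptide and neurotrophin genes 2 were lower in all 4 animals, the neurotrophin receptors Ntrk3 (-0.17 ± 0.03) and Ntrk2 (-0.11), and the growth factor Ntf3 and the granule protein Chgb lay at 0.00 and -0.08. Homer1, the only immediate-early gene with 50 CPM or more, lay at -0.25 and was lower in all 4 animals.

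Microglial markers summed to 57.2, 62.3, 23.9 and 54.2 CPM in the members of TBI rat 1, TBI rat 2, the sham rat and the naïve rat, and pericyte markers to 29.4, 76.4, 28.5 and 32.3 CPM. Endothelial markers summed to 71.1, 105, 123 and 39.5 CPM, and oligodendrocyte markers, led by Mbp, to 333, 415, 264 and 313 CPM. Oligodendrocyte precursor markers summed to 488, 449, 476 and 396 CPM, most of it Tnr, and markers of other excitatory neurons to 678, 530, 812 and 408 CPM, most of it Cpne4. Both genes were about as abundant in the other granule types (ratios of 0.04 and -0.09). The microglial and oligodendrocyte sums were higher in both TBI rats than in both controls, also without the astrocyte nuclei (49.1 and 44.7 against 19.4 and 25.4 CPM for microglia, 297 and 294 against 177 and 211 CPM for oligodendrocytes). In the injury comparison below, 4 of the 7 oligodendrocyte markers tested lay higher in both TBI rats and none lower (median Log2FC 0.38), and 2 of the 5 microglial markers lay higher and none lower (median 0.63), where 21.3% and 10.8% of all genes did. The endothelial and excitatory sums were lowest in the naïve rat. The part of these markers in the injury results was not tested beyond leaving out nuclei of 3 or more glial or vascular UMIs, which gave 0 calls as well.

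The injury comparison asked which genes of these nuclei differed 3 weeks after TBI. UMIs were summed over the members of each animal and tested by edgeR's quasi-likelihood test, 2 TBI rats against the 2 controls, over 10183 genes. At a false discovery rate (FDR, Benjamini-Hochberg) of 0.05 the test called 0 genes (0% of those tested), and the smallest FDR was 0.997. An unadjusted p under 0.05 was found for 343 genes (3.37%), 193 higher (1.90%) and 150 lower (1.47%) in TBI, and DESeq2 called 0 genes as well with 102 at that p. Both TBI rats lay on one side of both controls for 3273 genes (32.1%), 2169 higher and 1104 lower. The median Log2FC of all genes was -0.02. Counts of calls depended on single animals, being 14 without TBI rat 1 and 37 without TBI rat 2, the latter including the ribosomal protein genes Rps27 and Rps23. In these 2 fits the spread came from the sham and naïve rats alone, and the lone TBI rat was assumed to vary like them. The sham and naïve groups held 1 animal each, so any difference between them entered the test as spread.

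The genes with the smallest p are given as values, since none passed the test. Trim44, a deubiquitinating protein, was 120 and 103 CPM in TBI rats 1 and 2 and 175 and 198 CPM in the sham and naïve rats (Log2FC -0.81, SE 0.17, edgeR FDR 0.997). Nxf1, which exports mRNA from the nucleus, was 127 and 123 CPM in TBI and 71.8 and 62.6 CPM in control (0.84, SE 0.19). Neither gene's groups overlapped, nor did those of the genes below. Ncl, nucleolin, was 56.7 and 48.8 CPM in TBI and 83.8 and 105 CPM in control (-0.92, SE 0.21).

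The other higher genes have varied roles. Nptxr, the neuronal pentraxin receptor, was 133 and 134 CPM in TBI and 79.2 and 73.3 CPM in control (0.75, SE 0.18). Agap2, a regulator of small GTPases and trafficking, was 161 and 185 CPM in TBI and 109 and 68.8 CPM in control (0.94, SE 0.24). Its Log2FC was 0.61 without the naïve rat. Mast3, a microtubule-associated kinase, was 227 and 290 CPM in TBI and 157 and 139 CPM in control (0.75, SE 0.19). In each of these 3 genes the lowest animal was the naïve rat. Xkr8, a membrane scramblase, was 82.4 and 78.5 CPM against 37.7 and 47.0 CPM (0.83, SE 0.22). The unnamed locus AABR07057997.1 had a Log2FC of 1.01. AABR07000398.1 was 779 and 454 CPM against 346 and 257 CPM (0.97), and its Log2FC was 0.57 without TBI rat 1 and 1.27 without TBI rat 2 (edgeR FDR 0.0138).

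The last 3 genes were low in abundance. LOC100360841 was 40.6 CPM in TBI rat 1, 16.3 in TBI rat 2, 6.44 in sham and 2.39 in naïve, on 76, 23, 7 and 8 UMIs, and it was called without TBI rat 2 (Log2FC 3.33, edgeR FDR 0.000449). Eya1, a transcriptional coactivator, was 28.3 CPM in both TBI rats and 46.0 and 67.4 CPM in control, and its Log2FC of -1.10 became -0.35 without nuclei of 3 or more astrocyte UMIs. Angpt1, a vascular growth factor, was 27.3 and 19.1 CPM in TBI and 39.6 and 63.2 CPM in control. Its Log2FC of -1.24 became -0.74 without nuclei of 3 or more astrocyte UMIs, and -0.82 without the naïve rat.

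**Figure D4:**
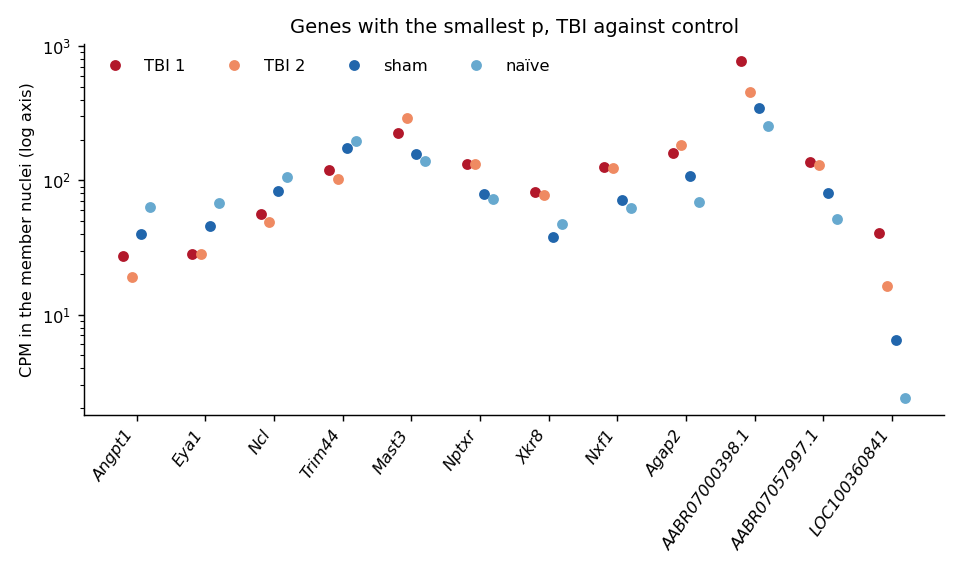
CPM in the member nuclei (vertical log axis) of the 12 genes with the smallest p whose TBI rats both lay on one side of both controls, with 1 dot per animal. None passed an FDR of 0.05 by edgeR's quasi-likelihood test, and LOC100360841 spans from 2.39 to 40.6 CPM.

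The genes of the rule are given as a description only. Trabd2b was 255 and 458 CPM in the members of TBI rats 1 and 2 and 238 and 249 CPM in those of the sham and naïve rats, with the excess in TBI rat 2. Deptor was 275 and 303 CPM against 289 and 205, Smo 272 and 260 against 247 and 256, and Rspo3 206 and 311 against 310 and 255. The groups overlapped for Deptor and Rspo3. The high Trabd2b of TBI rat 2 was not limited to the members, as its 3 other granule types had 128 CPM on average against 60.0 to 82.3 CPM in the other animals.

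The pathway lists gave no call in the injury comparison, where 21.3% of all genes lay higher in both TBI rats and 10.8% lower. Of 33 Wnt genes tested 0 were called, 8 lay higher in both TBI rats and 2 lower, and the median Log2FC was 0.03. Dvl1, which relays the signal from Wnt receptors, was 40.1 and 29.0 CPM in TBI and 14.7 and 16.8 CPM in control (Log2FC 1.05, SE 0.33, unadjusted p = 0.0108 by edgeR). Of 11 Hedgehog genes 3 lay higher and 2 lower with a median of -0.10, and Gli3 was the lowest at -0.57 (unadjusted p = 0.0444 by edgeR), with the naïve rat at 134 CPM and the sham rat, at 84.7 CPM, near the 74.3 and 82.8 CPM of the TBI rats. Of 39 mTOR genes 6 lay higher and 3 lower with a median of -0.07, and Eif4e, the cap-binding translation factor, was 63.6 and 66.5 CPM in TBI and 44.2 and 44.0 CPM in control (0.49, SE 0.21).

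No ion channel gene was called. Of 29 potassium channel genes 10 lay higher in both TBI rats and none lower (21.3% and 10.8% of all genes did), with a median Log2FC of 0.11, and of 22 sodium, calcium and HCN channel genes 10 lay higher and 1 lower, with a median of 0.15. Cacna1g, a T-type calcium channel, was 59.4 and 57.3 CPM in TBI and 38.7 and 23.3 CPM in control (0.91, unadjusted p = 0.0114 by edgeR). The naïve rat had the lowest summed level of both lists, at 7100 and 7934 CPM, against 8698 to 9284 and 9794 to 10197 CPM in the other animals, and the sham rat the highest. Of 20 glutamate receptor genes 4 lay higher and 1 lower (median -0.01), and of 12 GABA-A receptor genes 0 and 2 (median -0.18), with Gabrg1 at -0.70. Of 41 adhesion and guidance genes 7 lay higher and 3 lower (median -0.03), with Ephb2 at 0.61, Nrxn2 at 0.44 and Slit1 at 0.38.

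The remaining lists held few genes that could be tested. Of 7 immediate-early genes tested, which mark recent neuronal activity, all overlapped between the groups. Nr4a3 was 35.8 and 29.7 CPM in TBI and 57.1 and 8.08 CPM in control, Btg2 17.7, 27.6, 15.7 and 32.9 CPM, and Jun 26.7, 6.37, 7.36 and 39.5 CPM, each with the controls farther apart than the group means. Of 4 complement and interferon genes all overlapped, with B2m at 36.9, 43.2, 26.7 and 39.8 CPM and Stat2 and C1qb at 0.921 to 24.9 CPM. Of 4 stress response genes 1 lay higher, Hsp90aa1 (36.9 and 32.6 against 23.0 and 22.5 CPM), and Hspa8, Ddit3 and Atf4 overlapped. Of 8 neuropeptide and neurotrophin genes 1 lay higher and 1 lower. Of the 3 tested genes that differ along the long axis of the dentate gyrus, Spata13 was 40.6 and 62.3 CPM in TBI and 23.0 and 20.1 CPM in control (1.20, unadjusted p = 0.00417 by edgeR), Nr2f2 overlapped and Trhr was lower (-0.79). The place along that axis from which each tissue came was not tested.

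A last comparison of the nuclei asked whether the injury difference of this type differed from that of the 3 other granule types of the same animals, which themselves gave 0 calls among 12921 genes (341 at an unadjusted p under 0.05, edgeR). The type by injury term called 4 of 12477 genes at an FDR of 0.05 (0.0321%), with animal as a term, and 693 (5.55%) reached an unadjusted p under 0.05. With DESeq2 these numbers were 0 and 51. The genes called by edgeR included Apoe, Nxn (nucleoredoxin) and Htra1 (a secreted serine protease), and all 4 were lower in the TBI members relative to the other types. Apoe was 477 and 796 CPM in the members of TBI rats 1 and 2 and 351 and 1554 CPM in those of the sham and naïve rats, against 426, 664, 258 and 785 CPM in the other types pooled. The difference between types was -0.60 (SE 0.10, edgeR FDR 0.0365). The members of the naïve rat stood apart from all other values.

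Nxn was 20.3, 23.4, 24.9 and 51.5 CPM in the members of TBI rat 1, TBI rat 2, the sham rat and the naïve rat, and 28.6, 32, 16.3 and 29.9 CPM in the other types (-1.20, SE 0.22, edgeR FDR 0.046). Htra1 was 24.1, 22.6, 36.8 and 63.5 CPM in the members and 28.0, 26.1, 22.1 and 30.7 CPM in the other types (-1.16, SE 0.22, edgeR FDR 0.046). For both genes the members exceeded the other types in each control and fell short of them in each TBI rat. The astrocyte markers of the members were likewise highest in the naïve rat, at 950 CPM, but lowest in the sham rat. Without nuclei of 3 or more astrocyte UMIs the differences were -0.70, -0.68 and -0.38 for Apoe, Nxn and Htra1, and none of the 4 was called (edgeR FDR 0.0883 to 0.998). None was called without the naïve rat (edgeR FDR 0.881 to 0.99) or without the 5% deepest nuclei, where Apoe was at 0.0041.

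The next genes by p missed the threshold. Sfxn5, a mitochondrial carrier, had a difference of -0.65 (edgeR FDR 0.0556). Fat1, Rorb, Ephb1, Eya1, Grm3 and St3gal4 had differences of -1.03 to -0.41 and Gpc6 one of 0.34 (edgeR FDR 0.131 for each). Several of these were smaller without the astrocyte nuclei, at -0.26 for Sfxn5, -0.27 for Ephb1, -0.33 for Eya1, -0.27 for Grm3 and -0.41 for St3gal4. Without the naïve rat Rorb was at -0.40, Grm3 at -0.23, Eya1 at -0.61 and St3gal4 at -0.58. Rorb, a nuclear receptor, was 76.5, 140, 123 and 207 CPM in the members against 85.5, 106, 84.5 and 104 CPM in the other types.

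Without the astrocyte nuclei the term instead called 5 genes, Tenm4, Car10 and Gpc6 higher and Fat1 and Flt1 lower in TBI relative to the other types. Tenm4 and Car10, low in this type in every animal, differed by 0.48 and 0.60, and Gpc6, a glypican of synapse formation, by 0.34 (edgeR FDR 0.00404, 0.00966 and 0.00966). With all nuclei Gpc6 was 701, 555, 533 and 568 CPM in the members and 900, 679, 896 and 854 CPM in the other types. Its members therefore lay further below the other types in both controls than in both TBI rats. Fat1, a large protocadherin, was 32.1, 25.5, 51.6 and 39.5 CPM in the members and 30.3, 30.3, 25.3 and 20.0 CPM in the other types with all nuclei. Flt1, an endothelial marker, had 25.7, 41.8, 66.3 and 13.8 CPM in the members with all nuclei, and 12.6, 9.64, 67.4 and 6.36 CPM without the astrocyte nuclei. The sham rat alone was high there, the naïve rat lay below both TBI rats, and Flt1 was not called with the sham rat left out as well. Leaving out single animals as well gave 0 to 25 calls.

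**Figure D5:**
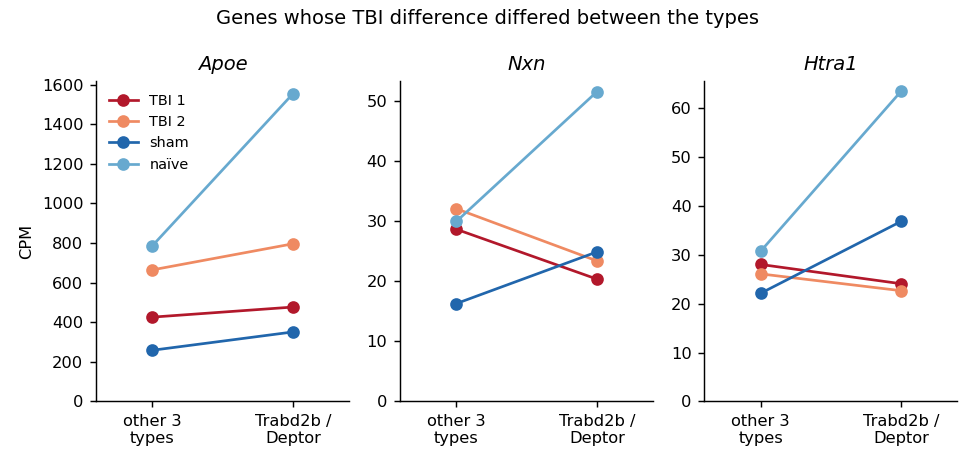
CPM in the other 3 granule types pooled (left points) and in the members (right points) of Apoe, Nxn and Htra1, with 1 line per animal and a separate vertical scale per gene. The naïve rat has the highest value of each gene in the members, up to 1554 CPM for Apoe, and for Nxn and Htra1 the lines of both TBI rats slope downwards and those of both controls upwards.

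In the bulk tissue of 6 other rats, fewer cells of a type and less RNA per cell cannot be told apart. Limma on the deposited log2 CPM called 0 of 14166 genes at an FDR of 0.05 (0%), with 1340 at an unadjusted p under 0.05 (9.46%). Deptor was 2.94, 2.94 and 2.87 log2 CPM in TBI rats 1 to 3 and 2.98, 3.36 and 3.07 in sham rats 1 to 3, a difference of -0.22 (SE 0.16, limma FDR 0.768). It was the only gene of the 4 whose groups did not overlap (14.7% of all genes did not, and 3.04% lay lower in TBI like Deptor). Smo was 4.57, 4.04 and 4.52 against 4.70, 3.6 and 3.35 (0.49, SE 0.34), and the difference was 0.90 without sham rat 1 (limma FDR 0.23) and 0.23 without sham rat 3. That of Deptor was -0.11 without sham rat 2. Rspo3 was 4.06, 3.24 and 3.43 against 4.25, 2.98 and 3.64 (-0.05, SE 0.35). Trabd2b was near the limit of the table, at 0.10, -1.18 and 1.18 against 0.94, -1.86 and -0.90 (0.64, SE 0.87).

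The level of Prox1 itself differed widely between the bulk rats, from 4.63 to 6.25 log2 CPM in TBI and from 4.0 to 6.72 in sham rats. Smo, Smad3, Robo3 and Trabd2b were likewise highest in sham rat 1 among the sham rats, and the part of the granule content of the dissected tissue was not tested. The injury dates fell in spring (sham rats 1 and 2, TBI rat 1) and autumn (sham rat 3, TBI rats 2 and 3). Deptor was lower in TBI within both periods (-0.23 and -0.16), Smo higher (0.42 and 0.93), and Rspo3 turned from 0.45 to -0.31. Among the genes of the other groups, Niban3 was 2.31, 1.41 and 2.37 against 0.48, -1.86 and 0.36 (2.37, SE 0.65, limma FDR 0.246), and Bdnf overlapped (-0.11, SE 0.10).

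Of the 10 genes with the highest type ratio, 6 lay higher in all 3 TBI rats than in all 3 sham rats in bulk (11.7% of all genes did). Abca1 was 6.32, 7.05 and 6.43 log2 CPM in TBI and 4.93, 5.92 and 5.50 in sham rats (1.15, SE 0.28, limma FDR 0.195). Apoe was 12.23, 12.60 and 12.46 against 12.04, 11.35 and 11.65 (0.75, SE 0.20, limma FDR 0.238). Slc7a11, Gja1 and Tmsb4x differed by 0.78, 0.50 and 0.14, and none of the 6 passed the threshold. In the same tissue 7 of 8 astrocyte markers lay higher in all 3 TBI rats and none lower (median 0.41, Gfap 1.63, Aqp4 0.74), as did 8 of 9 microglial markers (median 1.17, Ptprc 1.59, C1qb 1.31), none of them called, and their part in the values above was not tested. B3gat2 and Grm8 overlapped between the groups, at -0.35 (SE 0.22) and -0.11 (SE 0.56), and Mid1 differed by 0.07. In the members the Log2FC of Apoe was -0.66 with all nuclei, the opposite sign to bulk, and 0.83 without the astrocyte nuclei, the same sign, and neither passed the test.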

How the data were processed

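snRNA-seq was made from 4 rats and bulk RNA-seq from 6 other rats. The authors deposited UMI counts per gene and barcode from Cell Ranger (Rnor_6.0, exons and introns), with 1.63% to 27.4% of the stored entries equal to 0, which were read as 0. For the bulk tissue the authors deposited estimated counts per transcript from kallisto (version not given in the sources used here), of which only the totals were used (25121893 to 44649404 per rat), and log2 CPM per gene after their filters on annotation, low counts and low variance. Dates of injury were used only to tell spring from autumn.

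The 4 snRNA-seq libraries held 12533, 14963, 16972 and 11395 barcodes and 32543813, 26451421, 35330548 and 35150697 UMIs (TBI rat 1, TBI rat 2, sham, naïve). Nuclei were assigned by the rule in the text and doublets were not called. Instead the 5% deepest nuclei, and nuclei with 3 or more glial or vascular UMIs, were left out as alternatives. UMIs were summed per animal and tested by edgeR 4.0.16 (R 4.3.3, filterByExpr, TMM, quasi-likelihood, Benjamini-Hochberg, FDR 0.05), with DESeq2 1.42.0 as an alternative. A stricter pair of thresholds, FDR 0.01 with an absolute Log2FC of 1.5, also called 0 genes in the injury comparison. The type by injury term was fitted on 2 sums per animal, the members and the other 3 types pooled, with animal as a term. Bulk log2 CPM was tested by limma 3.58.1 with a trend. Shares were compared by an exact permutation test (scipy 1.17.1). The tests were run on simulated data with known changes first. P-values of the injury, share and bulk comparisons measure the spread between animals. Those of the type by injury term measure how the difference between members and other types within an animal varies between animals. Intervals cover counting error only.

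Genes named are those of the rule, up to 12 per test with the smallest p and groups apart, the 15 highest and 8 lowest type ratios with 1 sign in all 4 animals, and the 4 most abundant members of each list. Other list members given (among them Boc, Ptch1, Disp1, Rspo2, Lgr4, Rictor, Rheb, Grm3, Gabrg3, Kcnk2, Cntn4 and those with an unadjusted p under 0.05) were chosen after their values were seen, as were Tenm4, Car10 and Flt1 in the type by injury comparison. The members and lists were chosen with earlier results of these data known. Alternatives were other gates, depths, filters, tests and left-out animals. Leaving out nuclei with astrocyte UMIs, splitting the bulk rats by season and a filter on the mean of both sides of the type ratio were added after seeing the data. Some genes that the naming rule selected are not reported here.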

Additional observations from a re-analysis of the deposited data

Results flagged for a closer look

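In 3 of the 4 genes called, given here, the TBI against control difference was not the same in the Trabd2b and Deptor type as in the other 3 granule types pooled, by the type by injury term of edgeR (Log2 scale, type minus others). The difference was -0.60 for Apoe (edgeR FDR 0.0365), -1.20 for Nxn and -1.16 for Htra1 (edgeR FDR 0.046 for each). DESeq2 called none of them. Each difference kept its sign without the naïve rat, at -0.21, -1.07 and -0.93, and none was called there. Without the 5% deepest nuclei they were 0.0041, -0.72 and -0.64. Without nuclei of 3 or more astrocyte UMIs they were -0.70, -0.68 and -0.38, and none of the 3 was called.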

How the results depend on the processing

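The injury comparison within the type called 0 genes by edgeR, by DESeq2, with a gate of 3 UMIs, with the study's filters, at 1000 UMIs or more, and without the glial, deepest or astrocyte nuclei. It called 45 genes with no filter on low counts, and 0 to 37 when 1 animal was left out (14 without TBI rat 1, 37 without TBI rat 2). A group left with 1 animal was assumed to vary like the other group. Using the sham rat alone as control is the same fit as leaving out the naïve rat (0 genes). The type by injury term called 4 genes, but 0 by DESeq2, 33 with no filter, 11 with a gate of 3 UMIs, 2 without glial or vascular nuclei, 0 without the 5% deepest nuclei, and 0 to 88 when 1 animal was left out (88 without the sham rat, 2 without TBI rat 2, 0 without TBI rat 1 or the naïve rat). Without the 5% deepest nuclei 3 named differences changed sign, to 0.0041 for Apoe, 0.0012 for Rorb and 0.13 for Eya1. With astrocyte nuclei and 1 animal left out together, a setting chosen after seeing the data, the injury comparison called 38 genes without TBI rat 1, 41 without TBI rat 2 and 0 without either control, and the type by injury term called 2, 0, 25 and 9 without TBI rat 1, TBI rat 2, the sham rat and the naïve rat. In those fits the injury difference of Eya1 became 0.018 without TBI rat 2 and 1.59 without the sham rat, and the type difference of Ephb1 became 0.022 without the sham rat. The share difference of -0.857 points became 0.296 with nuclei of any of the 4 types as denominator, 0.475 after thinning, and -5.79 to 4.07 when 1 animal was left out. The 19 higher genes of the type became 8 without astrocyte nuclei, 14 with 50 CPM required of the mean of both sides, 131, 58 and 6 against the Niban3, Ror2 and Bdnf types alone, and 10 to 37 without 1 animal (37 without TBI rat 1, 10 without the naïve rat). The 25 lower genes became 32 without astrocyte nuclei, 140, 89 and 15 against those types, and 21 to 30 without 1 animal. The causes were not tested.

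In bulk, limma called 0 genes, 125 with the replicate block, and 0 to 1 without 1 rat. Same-numbered rats deviated together with r of 0.35, 0.17 and -0.03, so the numbers were not taken as pairs. With the block, none of the 4 genes passed an FDR of 0.05. Smo ranged from 0.23 to 0.90, Deptor from -0.30 to -0.11 and Trabd2b from 0.011 to 1.41 without 1 rat. Rspo3 ranged from -0.37 to 0.27 without 1 rat and was 0.449 within the spring rats. Trabd2b was not in the table with a mean log2 CPM of at least 0. No paired analysis was possible because the snRNA-seq groups share a single replicate number. A tally was made for the genes named by smallest p in the injury and type by injury comparisons of the nuclei. Of their values under other settings, 293 kept their direction and side of the threshold, 38 came to pass it and 43 no longer passed it. The 6 given above for these 2 comparisons changed sign. The tally leaves out type ratios and bulk values, and in bulk Rspo3 also changed sign.

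The gate rests on 2 or 3 UMIs for most members, so shares depend on depth, and 2 animals against 2 leave little power. Some lists had few genes with enough UMIs to be tested, such as the immediate-early genes.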
